A study of Mus musculus with 10 samples.

Results

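The genes for the transporters that carry nucleosides and nucleoside drugs across membranes, for ribonucleotide reductase and for SAMHD1 were examined in subcutaneous (s.c.) tumors of Panc02, a mouse pancreatic cancer cell line. The set is defined by 9 gene symbols, and all 9 were matched by Ensembl identifier among the 37417 genes of the deposited count table: Slc29a1, Slc29a2, Slc29a3, Slc28a2, Slc28a3, Rrm1, Rrm2, Rrm2b and Samhd1. The study targeted Cda, the gene for cytidine deaminase (CDA), which deaminates cytidine to uridine and also deaminates and so inactivates the drug gemcitabine. Sequenced RNA came from 5 tumors with a nontargeting guide (sgNT) and 5 with a guide against Cda (sgCda). All Panc02 cells, controls included, carried a lentiviral doxycycline-inducible Cas9 that had been switched on in culture before grafting, and differed in their guide RNA. Hosts in both groups were wild-type C57BL/6J mice, labelled 12 weeks of age, and tumors were taken on day 16 after injection, with no drug treatment given in the labels. Cancer cells received the guide by lentiviral transduction and selection, and the study's methods describe cloning from single cells by limiting dilution and a pool of clones for survival experiments only, so whether uncloned cells or clones were injected here is not stated. Host cells kept an intact Cda, and RNA came from whole tumor tissue.

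Nucleosides and their drug analogs are too hydrophilic to cross membranes freely, so cells take them up through 2 carrier families: equilibrative transporters (Slc29 genes), which let nucleosides run down their gradient, and concentrative transporters (Slc28 genes), which pump them inward with sodium. Ribonucleotide reductase, built from a large subunit (RRM1) and a small subunit (RRM2, or RRM2B outside S phase), makes deoxynucleotides from ribonucleotides and is inhibited by gemcitabine diphosphate. SAMHD1 runs the other way and hydrolyses deoxynucleoside triphosphates, and it is known for its abundance in myeloid cells and its induction by interferon.

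The guide is shown because the groups are defined by it, with the protospacer in lower case and the adjacent NGG motif that Cas9 requires in capitals. It matched Cda at chr4:138351219-138351238 (GRCm38), in exon 2 of transcript ENSMUST00000030535.3 and in the sense of that transcript, and Cda lies on the minus strand. Cda has 2 annotated transcripts, and the other held no exact match. Letters came from the study's oligonucleotide list and the adjacent motif from the reference transcript.
sgCda guide: tccagaaggccatctccgaaGGG

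Promoters of Rrm1 and Rrm2 are shown because these 2 subunit genes moved together across tumors. Each window runs from 250 bases before to 50 bases after the start that RefSeq gives on GRCm38.p6, 5′ to 3′ on the gene's own strand, which is the plus strand for both. Capitals mark exact matches to CCAAT, the string read by the factor NF-Y, and to an E2F-type string (TTTGGCGC or TTTCCCGC or TTTGCCGC or TTTCGCGC or TTCCCGCC), each searched on both strands.
Rrm1, chr7:102441445-102441744: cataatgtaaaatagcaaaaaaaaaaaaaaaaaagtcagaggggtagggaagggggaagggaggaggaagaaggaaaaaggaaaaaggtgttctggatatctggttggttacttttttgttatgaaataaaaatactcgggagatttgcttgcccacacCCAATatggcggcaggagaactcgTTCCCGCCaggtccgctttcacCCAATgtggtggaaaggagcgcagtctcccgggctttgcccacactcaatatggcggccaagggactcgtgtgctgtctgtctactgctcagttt
Rrm2, chr12:24708004-24708303: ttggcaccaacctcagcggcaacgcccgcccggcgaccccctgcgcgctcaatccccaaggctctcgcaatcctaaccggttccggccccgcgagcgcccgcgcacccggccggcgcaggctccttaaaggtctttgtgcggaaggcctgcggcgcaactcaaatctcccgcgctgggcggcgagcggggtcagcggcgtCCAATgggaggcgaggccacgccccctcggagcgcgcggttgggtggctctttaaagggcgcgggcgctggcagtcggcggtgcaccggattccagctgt

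In the Rrm1 window CCAAT began at positions -91 and -45 from the start, and TTCCCGCC began at -67 with no overlap between them. The Rrm2 window held CCAAT at -50 and no E2F-type match. Of 32851 promoters of that length, 37.4% held CCAAT and 3.89% held an E2F-type string, so the first match is common. Promoter windows were found for 8 of the 9 genes, not for Rrm2b. Only Slc29a1 had more than 1 start, so these 8 genes had 15 windows, 8 of them for Slc29a1. CCAAT occurred in 6 of the 15 windows, 1 of them among the 8 of Slc29a1, a share near that of all promoters. Counted by gene, 6 of the 8 held CCAAT in at least 1 window, and no background by gene was computed. An E2F-type string occurred in 2 of the 15, those of Rrm1 and Slc29a2 (TTCCCGCC at position 41 after the start). A match describes letters in the window and was not tested as a binding site.

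The 10 libraries held 28051907 to 39484964 counts assigned to genes, and 3 counts, used here as the detection limit, equalled 0.0760 to 0.107 CPM (a gene's counts relative to library size). Across 15299 genes that passed a filter on low counts, edgeR's quasi-likelihood test with Benjamini-Hochberg adjustment called 0 genes (0%), against 382 at an unadjusted p under 0.05 (2.50%), and 92 genes (0.601%) had CPM ranges that did not overlap between groups. Cda itself measured 10.1, 11.7, 12.8, 14.7 and 11.1 CPM in sgNT tumors and 8.34, 8.43, 12.1, 7.47 and 12.5 CPM in sgCda tumors, replicates 1 to 5. The groups overlapped, with sgCda replicates 3 and 5 inside the sgNT range (log2 fold change -0.30, SE 0.17, 95% interval -0.67 to 0.064, adjusted p = 0.9996 by edgeR's quasi-likelihood test). The study checked Cda silencing by RT-qPCR, with primers over the guide site, and by western blotting. Counts of the whole gene in whole tumors, host cells included, do not measure the editing. Of 9 epithelial markers the keratin genes Krt8 and Krt18 had the highest levels (476.3 ± 79.4 and 230.2 ± 46.2 CPM in sgNT tumors, mean ± SD, n = 5), whereas Cdh1 and Krt19 measured 18.1 ± 3.02 and 14.0 ± 4.79 CPM, Cldn7, Muc1 and Krt7 lay between 0.472 and 1.30 CPM on average and Cldn4 was below the filter. Epcam measured 1.03 ± 0.138 CPM with the control guide and 1.77 ± 0.959 CPM with the Cda guide (log2 fold change 0.78, edgeR, unadjusted p = 0.0305, adjusted p = 0.9996), and 7 of 8 genes of the exocrine pancreas were below the filter. Skeletal muscle genes (9 of 10 tested) summed to 5.56 to 625 CPM in sgNT tumors and 5.22 to 2547 CPM in sgCda tumors, with the highest sum in sgCda replicate 3, which also had the highest sum for 9 T cell markers (743.4 CPM, against 225.4 to 498.2 CPM in the other tumors). In sgCda replicate 4, mitochondrial genes took 5.82% of counts (3.47% to 3.81% in the other tumors). In that library 18.4% of uniquely aligned reads matched no counted gene feature (10.3% to 14.9% in the other tumors).

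**Figure D1:**
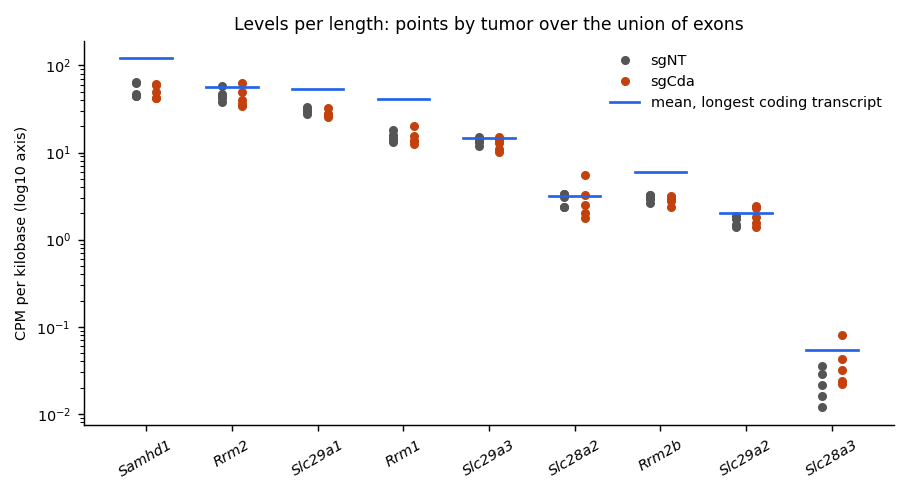
CPM per kilobase (log10 axis) of the 9 genes, each point 1 tumor (grey sgNT, orange sgCda, n = 5 each) with lengths from the union of annotated exons, and a blue line for the mean of all 10 tumors when length is that of the longest coding transcript. Samhd1 stood highest and Slc28a3 lowest under both lengths.

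To place the genes on 1 scale, CPM was divided by the length of each gene's exons in kilobases. Samhd1 led at 51.8 ± 9.28 CPM per kilobase (mean ± SD, n = 10 tumors), followed by Rrm2 at 45.1 ± 9.08, Slc29a1 at 29.4 ± 2.68, Rrm1 at 15.1 ± 2.39 and Slc29a3 at 13.1 ± 1.63. Slc28a2 (2.96 ± 1.06), Rrm2b (2.95 ± 0.294) and Slc29a2 (1.74 ± 0.364) formed a lower tier, and Slc28a3 lay near the detection limit at 0.0315 ± 0.0195 CPM per kilobase. Neighbours whose ranges over tumors overlapped were Samhd1 and Rrm2, Rrm1 and Slc29a3, Slc28a2 and Rrm2b, and Rrm2b and Slc29a2, whereas the ranges did not overlap at the other 4 steps of the order under this length. Exon unions of some genes hold retained introns (11012 bases for Rrm1, against 3997 for its longest coding transcript). With the coding transcript as length, an option added after the data had been seen, Samhd1 (120.8), Rrm2 (56.9), Slc29a1 (53.1) and Rrm1 (41.6 CPM per kilobase) kept their places and Rrm2b (5.92) passed Slc28a2 (3.19). The separations moved too, since Samhd1 then lay above Rrm2 in range (97.7 to 150.2 against 43.4 to 78.3 CPM per kilobase) and Rrm1 above Slc29a3, while the ranges of Rrm2, Slc29a1 (46.1 to 61.0) and Rrm1 (34.6 to 55.6) overlapped from 1 to the next.

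**Figure D2:**
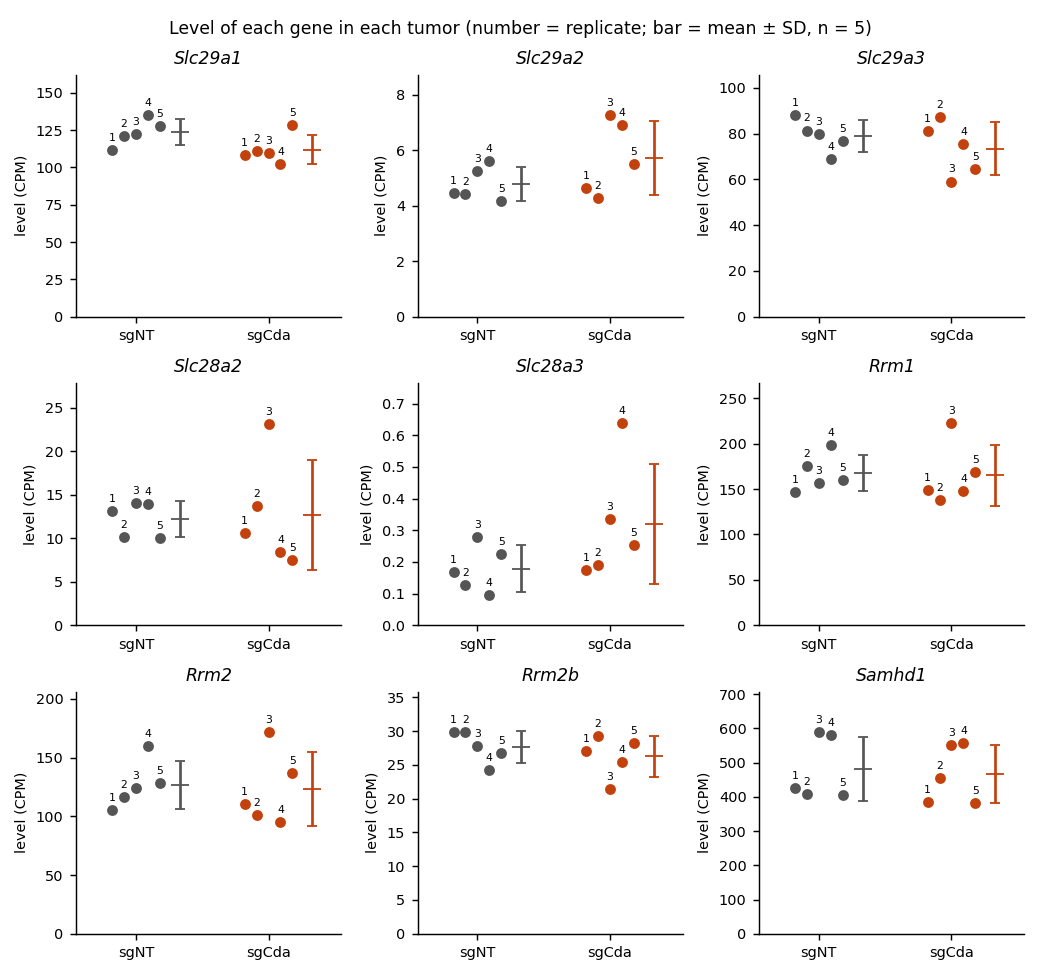
CPM of each of the 9 genes (y axis from 0, one panel a gene) in the 5 sgNT (grey) and 5 sgCda (orange) tumors, with replicate numbers above the points and the mean ± SD beside them. Group ranges overlapped in every panel, and sgCda replicate 3 was the highest tumor for Slc29a2, Slc28a2, Rrm1 and Rrm2.

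Which of these genes differed between sgCda and sgNT tumors was asked in the fit across all genes. Of the 9 genes 8 passed the filter, and Slc28a3 did not. None of the 8 passed the adjusted test (background 0%), 0 passed an unadjusted p under 0.05 (background 2.50%) and 0 had group ranges that did not overlap (background 0.601%). The log2 fold change was below 0 for 6 genes and above 0 for 2, with a median of -0.045 beside 0.0078 for all genes tested. The widest confidence interval was that of Slc28a2 and the narrowest that of Slc29a1, so the data bound a change of Slc29a1 more tightly than one of Slc28a2.

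**Figure D3:**
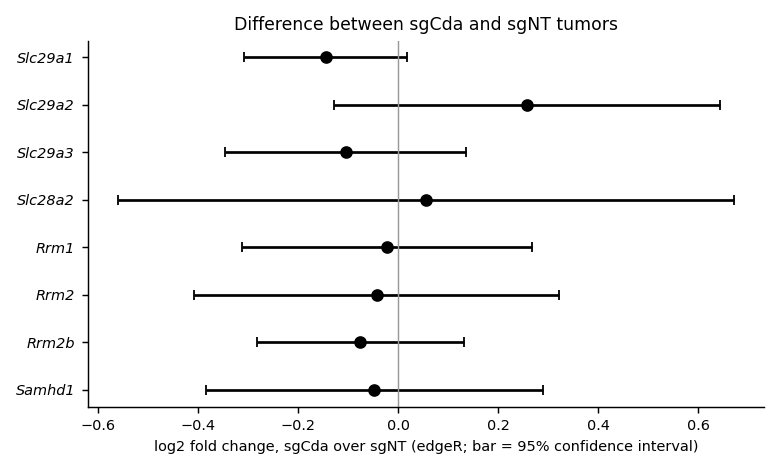
Log2 fold change of sgCda over sgNT tumors (x axis) for the 8 genes tested, with 95% confidence intervals from edgeR (n = 5 tumors a group). All 8 intervals include 0, and that of Slc29a1 (-0.31 to 0.017) reaches least far above it.

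Among the equilibrative transporters, Slc29a1 encodes ENT1, the main route of entry for gemcitabine into most cells (ENSMUSG00000023942, chr17:45585200-45599606, minus strand). Slc29a1 measured 111.7, 121.1, 122.6, 135.1 and 127.7 CPM in sgNT tumors and 108.0, 110.9, 109.6, 102.2 and 128.4 CPM in sgCda tumors. Of the 5 sgCda tumors, 4 lay below the lowest sgNT tumor, whereas sgCda replicate 5 lay inside the sgNT range, above the sgNT mean. Means were 123.6 ± 8.64 and 111.8 ± 9.85 CPM (SD, n = 5 each). The log2 fold change was -0.14 (SE 0.074, 95% interval -0.31 to 0.017, unadjusted p = 0.0752, adjusted p = 0.9996 by edgeR's quasi-likelihood test), which in percent is -9.56 with an interval of -19.2 to 1.21. Leaving out sgCda replicate 5 gave -0.20 (edgeR, unadjusted p = 0.0136, adjusted p = 0.9978), and leaving out sgNT replicate 1 gave -0.18 (unadjusted p = 0.0379, adjusted p = 0.9999). At the other end, the log2 fold change was -0.11 without sgCda replicate 4 (edgeR, unadjusted p = 0.153, adjusted p = 0.9996) and -0.12 without sgNT replicate 4 (edgeR, unadjusted p = 0.166, adjusted p = 0.9997). An antisense gene, Gm17080, overlaps 275 bases of its exons, and whether counting used strand is not stated.

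Slc29a2 encodes ENT2, a second plasma membrane carrier of broader selectivity (ENSMUSG00000024891, chr19:5023860-5031972, plus strand). Slc29a2 measured 4.45, 4.42, 5.24, 5.62 and 4.17 CPM in sgNT tumors and 4.64, 4.27, 7.27, 6.91 and 5.51 CPM in sgCda tumors. Only sgCda replicates 3 and 4 exceeded the highest sgNT tumor, and the other 3 lay inside the sgNT range. Slc29a2 had a log2 fold change of 0.26 (SE 0.18, 95% interval -0.13 to 0.64, adjusted p = 0.9996 by edgeR's quasi-likelihood test), which ran from 0.15 without sgCda replicate 3 to 0.35 without sgCda replicate 2 (edgeR, unadjusted p = 0.0674).

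Slc29a3 encodes ENT3, the carrier of lysosomal and mitochondrial membranes (ENSMUSG00000020100, chr10:60712072-60752794, minus strand). Slc29a3 measured 88.2, 81.4, 79.9, 68.8 and 76.7 CPM in sgNT tumors and 81.1, 87.1, 59.1, 75.5 and 64.5 CPM in sgCda tumors. The lowest 2 tumors were sgCda replicates 3 and 5, and the other 3 sgCda tumors lay inside the sgNT range. The log2 fold change was -0.10 (SE 0.11, 95% interval -0.35 to 0.14, adjusted p = 0.9996 by edgeR's quasi-likelihood test), or -0.036 without sgCda replicate 3 and -0.17 without sgCda replicate 2.

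To compare carriers within a tumor, where library scaling cancels out, ratios of CPM per kilobase were tested over all 252 assignments of the 10 tumors. The ratio of Slc29a1 to Slc29a2 was 18.9, 20.6, 17.6, 18.1 and 23.1 in sgNT tumors and 17.5, 19.6, 11.3, 11.1 and 17.6 in sgCda tumors. It was lower than the sgNT mean (19.7 ± 2.21, SD, n = 5) in 5 of 5 sgCda tumors, but also in sgNT replicates 1, 3 and 4. Only sgCda replicates 3 and 4 lay far below the rest. In sgCda replicate 2 the ratio was inside the sgNT range, and in sgCda replicates 1 and 5 just under it. The log2 difference was -0.38 (two-sided exact permutation p = 0.0794, adjusted p = 0.317 over 4 ratios, smallest p possible 0.00794). Without sgCda replicate 2 the log2 difference was -0.48 (exact permutation p = 0.00794, adjusted p = 0.0317), and without sgCda replicate 3 or 4 it was -0.28 or -0.27 (exact permutation p = 0.127 in both). Slc29a1 to Slc29a3 averaged 2.29 ± 0.410 over the 10 tumors, with a log2 difference of -0.031 (exact permutation p = 0.873).

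Of the concentrative transporters, Slc28a2 encodes CNT2, a sodium-driven carrier that prefers purine nucleosides (ENSMUSG00000027219, chr2:122426477-122461137, plus strand). Slc28a2 measured 13.1, 10.1, 14.1, 13.9 and 9.98 CPM in sgNT tumors and 10.6, 13.7, 23.2, 8.47 and 7.47 CPM in sgCda tumors. Its highest and lowest values both came from sgCda tumors, replicates 3 and 5, a 3.11-fold span, the widest among the 8 genes tested. The coefficient of variation was 16.8% in sgNT and 50.01% in sgCda tumors (n = 5 each), a difference that was not tested, and 27.5% in the 4 sgCda tumors other than replicate 3. The log2 fold change of Slc28a2 was 0.056 (SE 0.28, 95% interval -0.56 to 0.67, adjusted p = 0.9996 by edgeR's quasi-likelihood test), and -0.28 without sgCda replicate 3. Slc28a2 has a neighbouring paralog, Gm14085 (Slc28a2b in RefSeq), with 0 to 10 counts a library, and reads shared by both would have been left out by the counting.

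Slc28a3, which encodes CNT3 and in other tissues carries both purine and pyrimidine nucleosides, gemcitabine included, was close to absent (ENSMUSG00000021553, chr13:58545399-58610877, minus strand). Slc28a3 had 5, 4, 9, 3 and 9 counts in sgNT tumors and 6, 7, 12, 18 and 8 counts in sgCda tumors, with the most in sgCda replicate 4. Gm3131 overlaps 237 bases of its exons on the other strand, and whether these few counts came from that gene was not tested. In CPM these levels ran from 0.0942 to 0.638, against the 0.0760 to 0.107 CPM that 3 counts represent. A fit that kept all genes with at least 1 count gave a log2 fold change of 0.77 (SE 0.45, adjusted p = 0.862 by edgeR's quasi-likelihood test), and at this depth no difference was detectable. Slc28a1, which encodes the pyrimidine-selective CNT1, had 1 count in all 10 libraries together, and Slc29a4, the monoamine carrier PMAT, had 63, both below the filter.

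Turning to ribonucleotide reductase, Rrm1 encodes the large subunit, which holds the catalytic and allosteric sites (ENSMUSG00000030978, chr7:102441695-102469771, plus strand). Rrm1 measured 146.7, 175.5, 157.1, 198.9 and 160.4 CPM in sgNT tumors and 148.5, 138.1, 222.3, 147.5 and 169.2 CPM in sgCda tumors. The highest 2 tumors were sgCda replicate 3 and sgNT replicate 4, 1 from each group. Means differed by less than the spread between tumors (167.7 ± 20.2 and 165.1 ± 33.9 CPM, SD, n = 5 each; log2 fold change -0.022, SE 0.13, 95% interval -0.31 to 0.27, adjusted p = 0.9996 by edgeR's quasi-likelihood test).

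Rrm2 encodes the small subunit that carries the tyrosyl radical in S phase (ENSMUSG00000020649, chr12:24708241-24714146, plus strand). Rrm2 measured 105.0, 116.2, 124.2, 159.6 and 128.6 CPM in sgNT tumors and 110.7, 100.9, 171.8, 95.1 and 136.7 CPM in sgCda tumors. Again sgCda replicate 3 and sgNT replicate 4 were the highest, and sgCda replicates 2 and 4 the lowest. The log2 fold change was -0.043 (SE 0.17, 95% interval -0.41 to 0.32, adjusted p = 0.9996 by edgeR's quasi-likelihood test), which in percent is -2.91 with an interval of -24.6 to 25.04. Without sgCda replicate 3 the log2 fold changes of Rrm1 and Rrm2 were -0.15 and -0.19, and neither passed the test (edgeR, unadjusted p = 0.138 and 0.178).

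Rrm2b encodes the alternative small subunit, a p53 target that serves DNA repair and mitochondrial DNA in cells outside S phase (ENSMUSG00000022292, chr15:37923952-37961318, minus strand). Rrm2b measured 29.9, 29.8, 27.8, 24.2 and 26.8 CPM in sgNT tumors and 27.0, 29.3, 21.4, 25.4 and 28.2 CPM in sgCda tumors. Here the order turned round, since sgCda replicate 3 was lowest and sgNT replicate 4 next. The log2 fold change was -0.076 (SE 0.094, 95% interval -0.28 to 0.13, adjusted p = 0.9996 by edgeR's quasi-likelihood test), or -0.011 without sgCda replicate 3 and -0.13 without sgNT replicate 4. Gm49085 overlaps 734 bases of its exons on the other strand.

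Of the ratios, that between the main subunits varied least across tumors. Rrm2 to Rrm1, in CPM per kilobase, ran from 2.56 to 3.21 with a coefficient of variation of 7.88% (n = 10), against 17.9% to 24.3% for the other 3 ratios. This ratio is 1.36 on average with the coding transcript as length, so its size depends on the gene models. Its log2 difference between groups was -0.028 (exact permutation p = 0.722). Rrm2b to Rrm2 averaged 0.0685 and was lowest in sgCda replicate 3 (0.0378) and sgNT replicate 4 (0.0460), with a log2 difference of -0.016 (exact permutation p = 0.952).

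**Figure D4:**
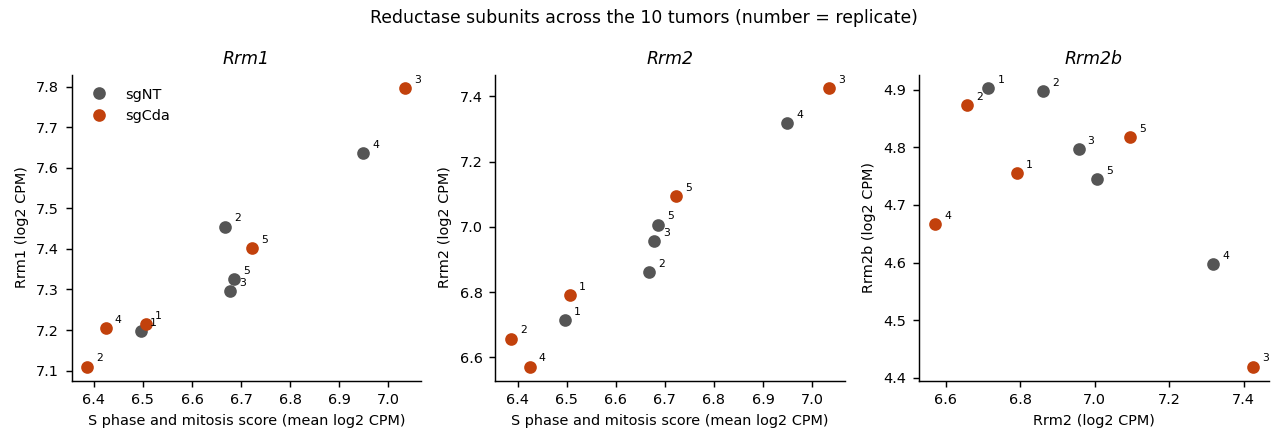
Log2 CPM of Rrm1 and Rrm2 against the S phase and mitosis score (mean log2 CPM of 20 genes), and of Rrm2b against Rrm2, each point 1 of 10 tumors (grey sgNT, orange sgCda, replicate numbers beside the points). Rrm1 and Rrm2 climb with the score (r of 0.97 and 0.98), and in the Rrm2b panel sgCda replicate 3 and sgNT replicate 4 lie apart at the lower right.

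How the subunits tracked each other and a score of S phase and mitosis genes was examined over the 10 tumors. The family held 15 relations (of 16 in the design, 1 had no value because Slc28a3 did not pass the filter). No relation was adjusted for another, so tracking each other and tracking the score cannot be told apart. The S phase and mitosis score was the mean log2 CPM of 20 genes such as Mcm2 and Mki67, none of them a member of the set. Rrm2 followed the score with r = 0.98 (permutation p = 1e-05, the smallest the permutations can give, adjusted p = 0.00015; Spearman's rho 0.99, permutation p = 1e-05). The relation of Rrm2 kept r = 0.97 without sgCda replicates 2 and 3, the tumors farthest from the median score, and r = 0.98 within groups.

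Rrm1 followed the same score with r = 0.97 (permutation p = 3e-05, adjusted p = 0.000225; rho 0.92, permutation p = 0.00043), 0.93 without those 2 tumors and 0.97 within groups. Rrm1 and Rrm2 followed each other with r = 0.92 (permutation p = 0.00025, adjusted p = 0.00125; rho 0.89, permutation p = 0.0011) and 0.92 within groups. Without sgNT replicate 4 and sgCda replicate 3 that r was 0.74 (exact permutation p = 0.0372), which no longer passed adjustment. The summed level of the 20 genes ran from 2703 to 3572 CPM in sgNT and from 2414 to 3697 CPM in sgCda tumors, with the 2 highest sums in sgCda replicate 3 and sgNT replicate 4. In bulk tissue, fewer cells of a type and less RNA per cell cannot be told apart.

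Rrm2b against Rrm2 gave r = -0.68 (permutation p = 0.0285, adjusted p = 0.0713; rho -0.49, permutation p = 0.154). This relation rested on sgNT replicate 4 and sgCda replicate 3, since r was 0.076 without both, and it was -0.75 on deviations from the group means, where it passed adjustment (permutation p = 0.013, adjusted p = 0.039). The deviations were permuted across both groups although they sum to 0 in each, so that p may be too small. Without sgCda replicate 4, the library with the most mitochondrial counts, r was -0.88 (exact permutation p = 0.0017, adjusted p = 0.00639), and without sgCda replicate 3 it was -0.42. An inverse course to Rrm2 was not particular to Rrm2b. Slc29a3 gave r = -0.82 with Rrm2 and 0.79 with Rrm2b, pairs outside the family that were not tested. With the score of 17 p53 target genes, Rrm2b gave r = -0.12 (permutation p = 0.733, adjusted p = 0.785; rho -0.19, permutation p = 0.606), and -0.14 without sgNT replicate 4 and sgCda replicate 5.

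For the transporters, Slc29a1 gave r = 0.53 with the S phase and mitosis score (permutation p = 0.115, adjusted p = 0.217; rho 0.56, permutation p = 0.0968). It was 0.92 without sgCda replicate 3 (exact permutation p = 0.000681, adjusted p = 0.0034) and 0.95 without sgCda replicates 2 and 3, the tumors farthest from the median score (exact permutation p = 9.92e-05). That tumor combined the highest score with a Slc29a1 level of 109.6 CPM, in the lower part of the range, and the r within groups was 0.52. Slc29a2 gave r = 0.46 with the same score (permutation p = 0.180, adjusted p = 0.300; rho 0.43, permutation p = 0.218), but 0.12 without sgCda replicate 3, -0.046 without sgCda replicates 2 and 3, and 0.83 without sgCda replicate 4 (exact permutation p = 0.00376, adjusted p = 0.0113). Both relations thus hung on single tumors.

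Samhd1 encodes the deoxynucleotide triphosphohydrolase (ENSMUSG00000027639, chr2:157097533-157135265, minus strand) and its level exceeded that of 98.4% of the genes tested, in CPM not divided by length. Samhd1 measured 425.3, 409.1, 589.9, 579.8 and 406.8 CPM in sgNT tumors and 386.0, 455.1, 551.5, 556.6 and 383.5 CPM in sgCda tumors. Replicates 3 and 4 of both groups were the 4 highest tumors, and the remaining 6 lay at 455.1 CPM or below. Means were 482.2 ± 94.0 and 466.5 ± 84.9 CPM (SD, n = 5 each; log2 fold change -0.048, SE 0.15, 95% interval -0.38 to 0.29, adjusted p = 0.9996 by edgeR's quasi-likelihood test).

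**Figure D5:**
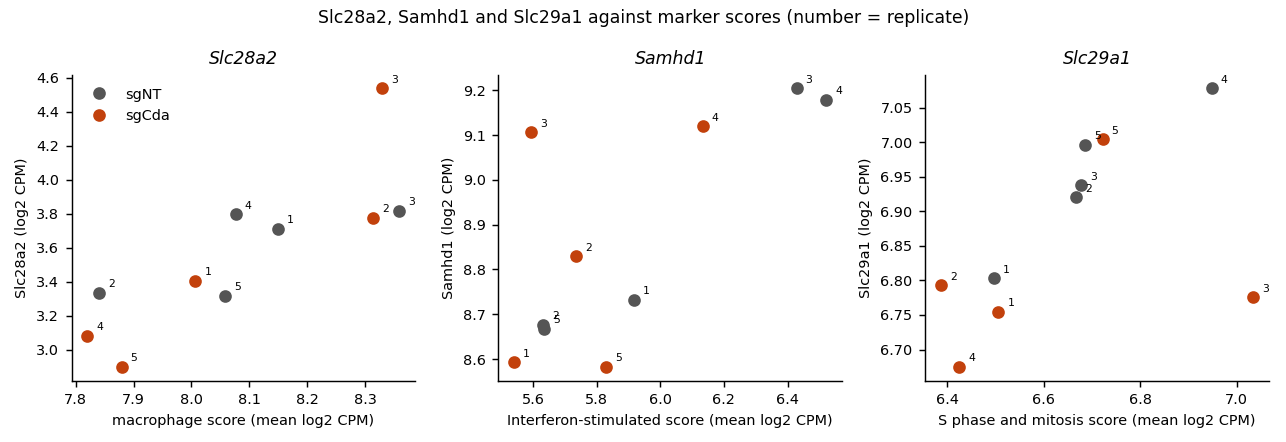
Log2 CPM of Slc28a2 against the macrophage score, of Samhd1 against the interferon-stimulated score and of Slc29a1 against the S phase and mitosis score, where each score is a mean log2 CPM and each point 1 of 10 tumors (grey sgNT, orange sgCda, replicate numbers beside the points). Slc28a2 climbs with the macrophage score (r of 0.83), and sgCda replicate 3 lies off the trend of the other 9 tumors for Samhd1 and Slc29a1.

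Samhd1 gave r = 0.72 with the score of 17 interferon-stimulated genes (permutation p = 0.0195, adjusted p = 0.0586; rho 0.64, permutation p = 0.055), which did not pass adjustment. Leaving out sgCda replicate 3 gave r = 0.91 (exact permutation p = 0.00189, adjusted p = 0.00708), whereas leaving out sgNT replicates 3 and 4, farthest from the median score, gave 0.40 (exact permutation p = 0.326). On deviations from the group means r was 0.75 and passed adjustment (permutation p = 0.0193, adjusted p = 0.0482). That p may be too small, for the reason given for Rrm2b. Summed levels of the 17 genes were 1924 to 2963 CPM in sgNT tumors, highest in replicates 3 and 4, and 1806 to 2445 CPM in sgCda tumors, highest in replicate 4. With the macrophage score Samhd1 gave r = 0.42 (permutation p = 0.216, adjusted p = 0.324; rho 0.48, permutation p = 0.167) and 0.028 without sgNT replicate 3 and sgCda replicate 3.

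Of the transporters, Slc28a2 and Slc29a3 were set against the macrophage score, a mean over 10 markers such as Csf1r and C1qa. Slc28a2 followed it with r = 0.83 (permutation p = 0.00189, adjusted p = 0.00709; rho 0.87, permutation p = 0.00228) and r = 0.83 within groups. Without sgNT replicate 3 and sgCda replicate 3 it gave r = 0.81 (exact permutation p = 0.0136), which did not pass adjustment over the family in those 8 tumors. Summed levels of the 10 markers were 5044 to 7788 CPM in sgNT and 4808 to 8269 CPM in sgCda tumors. The T cell sum named above was also highest in sgCda replicate 3, the tumor with most Slc28a2. It was lowest in sgCda replicates 5 and 4 (225.4 and 237.2 CPM), which had the least Slc28a2 (7.47 and 8.47 CPM). The relation of Slc28a2 to the T cell markers was not tested, so the one above cannot be taken as particular to macrophages. Slc29a3, by contrast, gave r = 0.029 with the macrophage score (permutation p = 0.935, adjusted p = 0.935; rho 0.067, permutation p = 0.865) and 0.51 without the same 2 tumors, and whether the 2 transporters differ in this was not tested.

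The other relations did not pass either. They were Slc28a2 with Samhd1 (r = 0.53, permutation p = 0.111, adjusted p = 0.217; rho 0.65, permutation p = 0.0491, adjusted p = 0.137), Slc29a1 with an endothelial score (r = 0.34, permutation p = 0.326, adjusted p = 0.445; rho 0.30, permutation p = 0.406), Slc29a3 with Samhd1 (r = -0.29, permutation p = 0.407, adjusted p = 0.508; rho -0.12, permutation p = 0.759) and Slc29a1 with Slc29a2 (r = -0.25, permutation p = 0.472, adjusted p = 0.545; rho -0.18, permutation p = 0.633). Without the 2 tumors farthest from the median these 4 were 0.49, 0.50, -0.34 and 0.58. As single tumors were left out, r of Slc28a2 with Samhd1 ran from 0.42 to 0.76. The highest value was that without sgCda replicate 4 (exact permutation p = 0.01, adjusted p = 0.0215).

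The genes whose log2 CPM was most like that of each member over the 10 tumors, among all 15299 tested, are given as a description, since they were picked for their r. For Rrm2 they were Ruvbl2 (r = 0.99), Tfdp1 (0.99), the dimerization partner of E2F factors, and Ska3 (0.98), a kinetochore component. For Rrm1 they were the translation termination factor Gspt1 (r = 0.99), the helicase Hells (0.97) and the histone chaperone subunit Ssrp1 (0.97). For Slc28a2 they were the G protein subunit Gng2 (r = 0.97), Ptprc (0.97), which encodes the leukocyte antigen CD45, and Tbx21 (0.97), which encodes the T cell and NK cell factor T-bet. For Samhd1 they were the interferon regulatory factor Irf2 (r = 0.98), Gm12185 (0.97) and the interferon-induced GTPase Gbp4 (0.97).

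For Slc29a1 the nearest were the Hippo pathway scaffold Sav1 (r = 0.97), Cyb561 (0.96) and Paqr4 (0.93). For Slc29a2 they were Qtrt2 (r = 0.96), the nucleolar protein gene Npm1 (0.95) and Wdr43 (0.95), a factor of ribosome biogenesis. Slc29a3 was nearest to Gm3654 (r = 0.96), the kinase Pak1 (0.95) and the endothelin-converting enzyme Ece1 (0.94), and Rrm2b to Crebrf (0.98), Hacl1 (0.97) and Apmap (0.96). Depth and tissue makeup are shared by all genes of a tumor, and n was 10 for each r.

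Other genes that import, activate, inactivate or export gemcitabine or build deoxynucleotides formed a list of 29, of which 27 were tested. None passed the adjusted threshold (background 0%) or the unadjusted one (background 2.50%). Of the 27, 13 had log2 fold changes above 0 and 14 below, and the median of the list was -0.00036 beside 0.0078 for all genes. The list ran from Cmpk2 at -0.35, a mitochondrial nucleotide kinase induced by interferon, to the efflux pump gene Abcc5 at 0.31 (sgNT 43.7 ± 7.49 CPM, sgCda 54.3 ± 23.9 CPM, mean ± SD, n = 5 each).

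Dck, the kinase that takes the first step of gemcitabine activation, measured 57.1 ± 6.53 CPM in the controls and 54.5 ± 13.2 CPM with the Cda guide (log2 fold change -0.068). Cmpk1, the next kinase, measured 119.9 ± 13.4 and 120.1 ± 21.1 CPM (0.0018), and Dctd, the deoxycytidylate deaminase, 10.7 ± 2.41 and 11.1 ± 2.73 CPM (0.050). In thymidylate supply, thymidine kinase Tk1 measured 99.9 ± 13.6 and 95.6 ± 19.6 CPM (-0.063) and thymidylate synthase Tyms 60.6 ± 6.61 and 60.4 ± 10.5 CPM (-0.0047). All 5 differed by less than the SD of either group.

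In the lists behind the scores, 0 of 20 S phase and mitosis genes and 0 of 17 p53 targets passed either threshold (background 0% adjusted and 2.50% unadjusted). These 2 lists had 19 and 9 log2 fold changes below 0 and medians of -0.065 and -0.0061, beside 47.1% of all genes tested below 0 and their median of 0.0078. Of 17 interferon-stimulated genes 0 passed the adjusted test and 2 the unadjusted one, both lower in sgCda tumors, as were 146 of all 15299 genes (0.954%). Usp18, which dampens interferon signalling, measured 44.4 ± 14.9 and 31.8 ± 3.75 CPM (log2 fold change -0.48, edgeR, unadjusted p = 0.0353), and Ifi44 55.5 ± 18.7 and 40.0 ± 5.76 CPM (-0.47, unadjusted p = 0.0425), each with an adjusted p of 0.9996. All 17 log2 fold changes were below 0, with a median of -0.30, against that same 47.1% and 0.0078 for all genes, and Samhd1 had -0.048. These genes share an inducer and are not independent of each other.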

How the data were processed

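RNA was sequenced from 5 sgNT and 5 sgCda tumors, grouped by sample title. Per the study's methods and the submitters' processing notes, polyadenylated RNA was made into stranded libraries, reads were checked with FastQC 0.11.5, aligned to GRCm38/mm10 with TopHat and Bowtie2 and assigned to Ensembl genes by HTSeq (version given as 07.2). The strand setting and annotation release are not given in the sources used here. The values are whole-number counts per gene as the authors deposited them, with no normalization. HTSeq leaves out reads that align to several places, so genes with near copies are counted too low. Its 5 summary lines, 45.4% to 51.2% of each library's total in the deposited counts and mostly such alignments, were left out. The lines for unaligned reads and for low alignment quality held 0 in every library.

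Symbols were found for 32608 of 37417 genes, and 11115 genes had 0 counts throughout. Genes were filtered with filterByExpr (minimum count 10, minimum total 15), scaled by TMM factors and tested with edgeR 4.0.16 (R 4.3.3) by its quasi-likelihood test, with Benjamini-Hochberg adjustment over 15299 genes. CPM refers to TMM-scaled libraries. Positions and exon lengths came from GENCODE on GRCm38, and antisense overlaps from the same annotation. Ratios were tested by two-sided exact permutation, and relations between log2 CPM values (prior count 2) with 100000 two-sided permutations (all of them for 9 tumors or fewer), adjusted over 15. A score is the mean log2 CPM of a list. The text names the 9 members, 7 handling genes, genes of the score lists with an unadjusted p under 0.05, and the 3 genes most like each member, while the genes at the ends of a list, the epithelial markers, Slc28a1, Slc29a4 and Gm14085 were named after their values were seen. Alternatives were DESeq2 size factors and Wald test (DESeq2 1.42.0), library totals, limma-voom (limma 3.58.1), a filter of 1 count, the replicate number as a block, other lengths, prior count 0.5, a median score, deviations from group means and removal of tumors. Length by longest coding transcript was added after seeing the data. Scripts were tested on simulated data. The members, the lists and the tests were chosen with earlier results of these data known. The design text gives 5 against 5 mice without tying tumors to animals, and no source says that the injected cells came from separate cultures, so p-values measure the spread between these tumors.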

Additional observations from a re-analysis of the deposited data

Results flagged for a closer look

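The score of 9 T cell markers in sgNT replicate 3 was 5.463 (mean log2 CPM), apart from the 4.881 to 5.001 of the other 4 sgNT tumors. It stood out by the gap to the nearest tumor relative to the range of its group. In all, 48 sets of 5 values were examined in this way, of which chance alone would mark about 2.4, and 1 was marked, so the number is no more than chance gives. None of the 9 genes had such a value in either group. In sgNT replicate 3, Slc28a2 was 14.1 CPM, the highest of the sgNT group, and Samhd1 589.9 CPM, the highest of all 10 tumors.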

How the results depend on the processing

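Over 16 alternatives to the fit, none called a member or any other gene at an adjusted p under 0.05, and the log2 fold changes of Slc29a1, Slc29a2, Slc29a3 and Rrm2b kept their direction in all 16. The number of members past an unadjusted p under 0.05 was 0 to 1 when single tumors were left out, and 1 (Slc29a1) without sgNT replicate 1 or sgCda replicate 5. Genes of the whole table past that threshold numbered 382, against 830 with the filter of 1 count and 747 without sgCda replicate 3. Log2 fold changes turned direction as single tumors were left out for Slc28a2 (-0.28 to 0.20), Rrm1 (-0.15 to 0.041), Rrm2 (-0.19 to 0.050) and Samhd1 (-0.12 to 0.036). For Slc28a2, limma-voom gave -0.017. With the replicate number as a block (replicate block), Slc28a2 gave -0.051, Slc29a1 -0.15 (unadjusted p = 0.093 by edgeR) and 325 genes in all past the unadjusted threshold, and it changed no call. Same-numbered tumors correlated from -0.43 to 0.34 in their deviations from the group means, and only replicates 3 and 5 correlated best with their own number. These values do not settle whether tumors were paired by number. For Samhd1 the block lowered the SE from 0.15 to 0.075, with a log2 fold change of -0.045 (unadjusted p = 0.563 by edgeR).

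Of the 4 ratios, 0 to 1 passed when single tumors were left out, Slc29a1 to Slc29a2 without sgCda replicate 2. The log2 differences turned direction for Rrm2 to Rrm1 (-0.074 to 0.021), Rrm2b to Rrm2 (-0.15 to 0.18) and Slc29a1 to Slc29a3 (-0.13 to 0.050). Of the relations, 4 passed adjustment, 3 without the 2 tumors farthest from the median, and 6 on deviations from group means, where p may be too small. When single tumors were left out, 4 to 7 passed, 7 being without sgCda replicate 4. Leaving out 1 tumor, r turned sign for Rrm2b with p53 targets (-0.34 to 0.032), Slc29a1 with Slc29a2 (-0.41 to 0.031) and Slc29a3 with macrophage markers (-0.15 to 0.47). Rrm2b with p53 targets gave 0.47 with the median over the list. Without the 2 farthest tumors r was 0.076 for Rrm2b with Rrm2, 0.58 for Slc29a1 with Slc29a2 and -0.046 for Slc29a2 with the S phase score, and on deviations from group means it was 0.0030 for Slc29a1 with Slc29a2. The causes were not tested. At 3 to 18 counts a library, Slc28a3 is limited by depth.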
